A study of Mus musculus with 20 samples.

Results

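Spinal muscular atrophy (SMA) follows from low levels of SMN, a ubiquitous protein that assembles the Sm ring onto the small nuclear RNAs of the spliceosome. Here, total cytoplasmic RNA from whole brains of SMA mice is compared with that of controls on postnatal day 5, an early symptomatic age. The comparison rests on 4 of the 20 libraries of the study, 2 of each genotype, each read as a separate mouse. SMA mice were of the “Taiwanese” model, Smn-/-; SMN2tg/0, and controls were their heterozygous littermates, Smn-/+; SMN2tg/0. Both groups therefore carry the human SMN2 transgene on a congenic FVB background, and the controls have 1 functional copy of Smn. No treatment is named for these animals, which were killed with an overdose of anesthetic. Brains were snap-frozen, cytoplasmic lysates were run on sucrose gradients, and total RNA was taken from all pooled fractions. The question was which transcripts already differ in the brain at this stage.

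Values are FPKM (fragments scaled to transcript length and to the mapped fragments of the library), 1 per gene and library, for 45700 genes. Protein-coding genes were kept when their mean over the 4 libraries was at least 1 FPKM and no library listed them at 0. Of 13200 genes that met the first condition, 8 were listed at 0 somewhere and were left out, which gave 13192 genes. For 13155 of these a transcript length was known, and they were tested. Because the table holds no read counts, the depth behind a value is unknown and no counting interval is given. With 2 mice against 2 an exact permutation test cannot go below p = 0.333, so single genes were compared with limma, which pools the spread over all genes.

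SMA replicate 1 stood apart from the other libraries, and this bears on everything that follows. Xist, the noncoding RNA made from the inactive X chromosome of females, was at 13.42 FPKM in SMA replicate 1 and at 0.04, 0.02 and 0.1 FPKM in the other libraries. The Y-linked gene Eif2s3y was at 0.5 FPKM in SMA replicate 1, against 29.77 and 32.07 FPKM in the controls and 30.5 FPKM in SMA replicate 2. By these transcripts SMA replicate 1 came from a female and the other 3 libraries from males, so sex and genotype are partly mixed. Of 455 X-linked genes tested 12 were called higher and 10 lower in SMA by the rule given below, where 3.00% and 3.31% of all genes were. A sex difference would widen the spread between the SMA replicates, so these counts do not measure it. Y-linked genes differ between the SMA replicates themselves, so calls on them carry no information. The median absolute log2 difference between replicates was 0.105 in the controls and 0.211 in the SMA mice. Counts of the main gene groups are accordingly given also without SMA replicate 1, which leaves males only. Such counts rest on SMA replicate 2 alone, and the spread then comes from the controls only. They are therefore not a replicated comparison within 1 sex.

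The fold change between genotypes depended on transcript length. Transcript length and log2 fold change had a Spearman's rho of 0.547 across the 13155 genes, which are not independent replicates. In 10 bins of equal gene number the median log2 fold change went from −0.31 in the shortest transcripts (165 to 1433 bases) to 0.23 in the longest (6986 to 123179 bases). Both SMA libraries showed the trend, and SMA replicate 1 showed it more steeply. Its median difference from the control mean went from −0.50 to 0.35 over the bins, against −0.12 to 0.12 in SMA replicate 2. The controls stayed within 0.03 of their mean in every bin. At day 7 rho was −0.06. Whether the trend at day 5 reflects the RNA, the libraries or the animals was not tested.

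**Figure D1:**
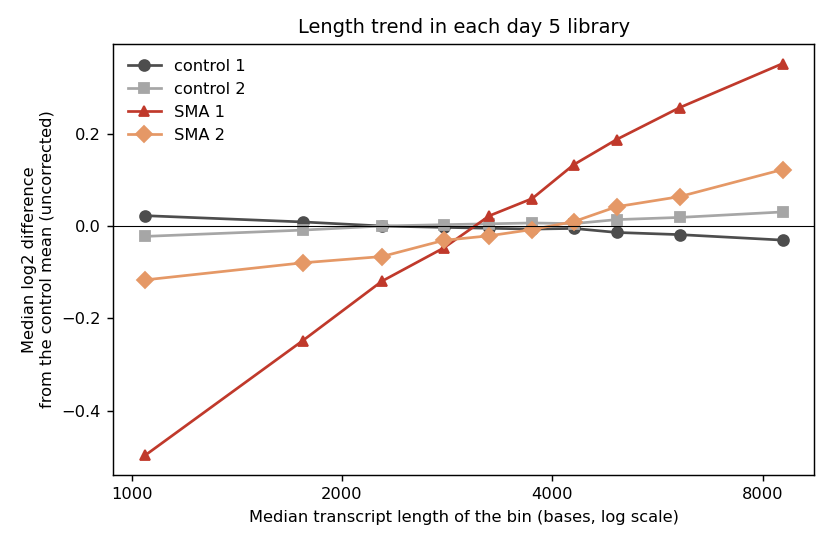
Median log2 difference from the control mean (vertical axis, uncorrected values) in 10 bins of transcript length (horizontal axis, bases, log scale), with 1 line per day 5 library. SMA 1 runs from −0.50 to 0.35 and SMA 2 from −0.12 to 0.12, while both controls stay close to 0.

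Each gene was therefore compared with genes of similar length. A lowess curve on length was removed from each library, and the fold change that remained is called length-relative. A gene was called higher or lower when its unadjusted limma p was under 0.05 both before and after this correction, with the same sign. On this rule 830 genes were called, 394 higher in SMA (3.00% of those tested) and 436 lower (3.31%). Before correction 735 genes were higher (5.59%) and 750 lower (5.70%). In the shortest bin 252 genes were lower before correction and 56 were called, and in the longest bin 250 were higher and 48 were called. A threshold of 0.05 by itself would pass 657.75 of 13155 genes in a single fit. After Benjamini-Hochberg adjustment 3 genes passed 0.05 in the uncorrected limma fit, Aplnr, Ccl21a and Fam107a, and 1 gene passed in both limma fits, Aplnr. Single calls other than Aplnr thus do not survive correction for the number of genes in both fits. The groups of genes below are described by their counts beside these shares.

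All 830 called genes had control and SMA values that did not overlap, but so did 25.9% of all tested genes in the higher direction and 24.3% in the lower one. Without SMA replicate 1 there were 396 higher genes (3.01%) and 587 lower genes (4.46%), and 493 of the 830 calls were made again. Without SMA replicate 2 the shares were 8.10% higher and 9.11% lower, without control replicate 1 they were 0.973% and 1.98%, and without control replicate 2 they were 1.13% and 1.10%. Counts given below for gene groups without a library are to be read beside these shares. The median length-relative change of the called genes was 0.495 in absolute log2 units, against 0.124 for all genes tested. More than 2-fold changes were seen in 45 called genes that were lower and 30 that were higher.

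Smn1, the disrupted gene, was at 9.71 and 8.92 FPKM in controls and at 9.55 and 10.09 FPKM in SMA mice. These values overlapped and the gene was not called. They are sums over the whole gene, so they do not check the genotype. None of the 9 measured members of the SMN complex, and none of the 8 Sm proteins it loads, were called, although 3 Sm proteins were lower without SMA replicate 2, and 1 gene of the complex was lower with males only and 1 without control replicate 2. The complex's most abundant member, Strap, was at 62.55 and 74.25 FPKM in controls and 75.14 and 68.17 FPKM in SMA mice.

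Genes of cell division were largely lower in SMA brain, though how many were called depended on single libraries. At this age the brain still holds dividing cells, among them cerebellar granule neuron precursors, glial progenitors and vascular cells. Of 37 cell cycle genes 27 were called lower and 0 higher, and the length-relative change was negative in all 37. Their median was −0.68, with −0.75 in SMA replicate 1 and −0.61 in SMA replicate 2 relative to the control mean. The same median over all tested genes was 0.00. In 36 of 37 genes both SMA values were under both control values. In bulk tissue fewer cells of a type and less RNA per cell cannot be told apart, here and in all the groups that follow.

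The list spans the whole cycle. Cdk1, the kinase that drives entry into mitosis (chromosome 10 of GRCm38, 69335146 to 69352938), was at 14.35 and 23.15 FPKM in controls and at 8.57 and 7.68 FPKM in SMA mice. Its length-relative log2 fold change was −1.23 (SE 0.22, limma adjusted p = 0.386). Both SMA mice lay far under the lower control. Ube2c, which hands ubiquitin to the anaphase-promoting complex, was at 8.69 and 8.97 FPKM in controls and 3.40 and 4.08 FPKM in SMA mice. Here the controls were nearly equal and the length-relative log2 fold change was −1.12 (SE 0.12). Cenpa, the centromeric histone, which is not on the list but was called lower, had 8.63 and 10.91 FPKM in controls and 3.88 and 5.06 FPKM in SMA mice.

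The same direction held for genes of other phases. Among cyclins, Ccna2 was at 10.48 and 12.87 FPKM in controls and 5.96 and 7.04 FPKM in SMA mice. Ccnb2 had 5.20 and 6.11 FPKM in controls and 1.97 and 3.23 FPKM in SMA mice. Of the S phase genes, Tyms, which makes thymidylate, had 8.56 and 14.6 FPKM in controls and 5.92 and 6.13 FPKM in SMA mice, and Mcm5, part of the replicative helicase, had 5.29 and 5.94 FPKM against 3.76 and 3.75 FPKM. Mki67, the usual marker of cycling cells, was at 4.15 and 6.78 FPKM in controls and 2.67 and 3.64 FPKM in SMA mice. Pcna, the most abundant of the list, was not called, with 35.71 and 43.39 FPKM in controls and 26.31 and 32.91 FPKM in SMA mice.

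**Figure D2:**
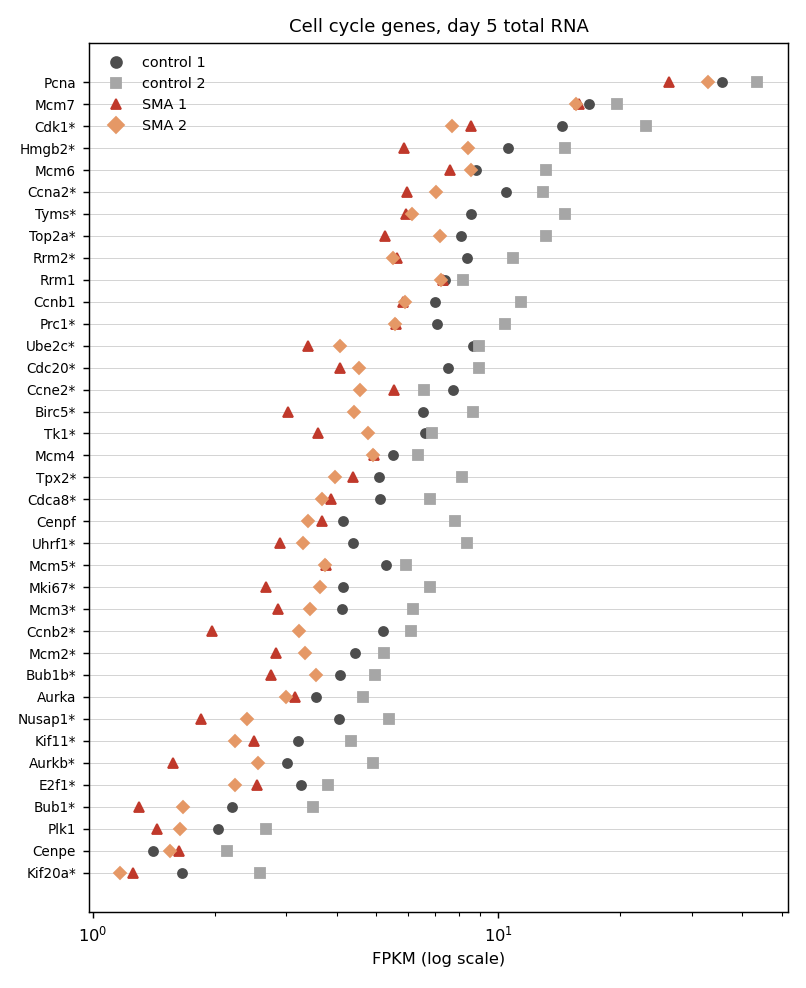
FPKM (horizontal axis, log scale) of the 37 cell cycle genes in the 4 day 5 libraries, 1 symbol per library and genes ordered by mean level, with an asterisk on the 27 called genes. Control 2 is the highest library for most genes, and in 36 genes both SMA values lie to the left of both control values.

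Control replicate 2 had higher levels of these genes than control replicate 1. Their summed FPKM was 256 and 342 in the controls and 179 and 199 in the SMA mice. The size of the group therefore leans on a few libraries. When SMA replicate 1 was left out 15 of the 37 were called lower, and 17 and 10 without SMA replicate 2 and control replicate 2. Leaving out control replicate 1 gave 30. In a single model over all 10 total RNA libraries of both stages 13 were called. In the polysomal RNA of the same day 5 groups 27 of 37 were called lower, where 5.31% of all genes were. Total RNA was pooled from all fractions, polysomal ones included, so polysomal counts here and below are not an independent check.

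Promoters of several of these genes share sequence motifs. Many cell cycle genes are silenced outside division through a cell cycle homology region, TTTGAA, close to the start. Their promoters often hold CCAAT boxes as well. Each motif was searched on both strands in the 120 bases before the RefSeq start (GRCm38.p6), so a match may read as its reverse complement. A window existed for 31 of the 37 genes. CCAAT was found in 24 of them (77.4%), against 22.1% of 27021 promoters of the same length, and TTTGAA in 8 (25.8%), against 7.24%. Both occurred in 6 genes (19.4%), against 1.55% of all promoters, and all 6 were called lower, as were 22 of the 31 genes with a window. CCAAT alone did not go with the calls, since it was in 15 of the 22 called genes (68.2%) and in all 9 that were not called. These 6 windows are shown because they hold both motifs. The length-relative change was negative in all 37 genes of the list, so its direction does not set these 6 apart. A link between the motifs and the change was not tested. Capitals mark the motifs, no matches of the motifs overlap, and the last base of each run is the one before the start.
Cdk1, chr10:69352913-69353032, minus strand: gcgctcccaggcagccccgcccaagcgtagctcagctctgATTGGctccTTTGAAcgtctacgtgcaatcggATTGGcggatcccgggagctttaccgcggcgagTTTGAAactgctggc
Top2a, chr11:99024190-99024309, minus strand: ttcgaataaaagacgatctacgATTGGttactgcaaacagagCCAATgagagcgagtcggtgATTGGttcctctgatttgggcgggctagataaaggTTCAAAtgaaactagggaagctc
Ube2c, chr2:164769809-164769928, plus strand: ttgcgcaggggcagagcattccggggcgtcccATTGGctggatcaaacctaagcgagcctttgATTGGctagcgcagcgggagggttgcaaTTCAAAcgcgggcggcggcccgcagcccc
Kif11, chr19:37376262-37376381, plus strand: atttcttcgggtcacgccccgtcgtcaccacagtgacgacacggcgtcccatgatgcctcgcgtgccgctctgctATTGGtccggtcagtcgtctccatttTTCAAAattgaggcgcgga
Cdc20, chr4:118437344-118437463, minus strand: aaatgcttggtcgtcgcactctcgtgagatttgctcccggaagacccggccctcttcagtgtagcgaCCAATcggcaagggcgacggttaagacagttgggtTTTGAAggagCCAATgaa
Hmgb2, chr8:57511723-57511842, plus strand: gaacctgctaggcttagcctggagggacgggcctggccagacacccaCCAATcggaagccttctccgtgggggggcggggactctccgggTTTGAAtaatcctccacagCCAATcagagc

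In all 6 windows a TTTGAA match begins 15 to 30 bases before the start. In Cdc20 and Hmgb2 a CCAAT match lies nearer to the start than TTTGAA, at 8 and 11 bases. A match is a description of the sequence and not a bound site. Top2a, the topoisomerase that untangles replicated chromosomes, was at 8.09 and 13.12 FPKM in controls and 5.26 and 7.18 FPKM in SMA mice. Kif11, the spindle motor, was at 3.21 and 4.34 FPKM in controls and 2.50 and 2.25 FPKM in SMA mice.

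Many endothelial genes were lower as well, and over this list the medians of the SMA libraries lay close together. Endothelial cells line the vessels and, in the brain, form the barrier through tight junctions and transporters. Of 24 endothelial genes 14 were called lower and 1 higher, with a median length-relative log2 fold change of −0.61. The medians of SMA replicates 1 and 2 were −0.61 and −0.60. Leaving out SMA replicate 1 gave 16 lower genes, and leaving out control replicate 2 gave 9.

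Cldn5, the tight junction claudin of brain endothelium (chromosome 16, 18776847 to 18778262), was at 52.92 and 43.76 FPKM in controls and at 18.86 and 18.53 FPKM in SMA mice. The length-relative log2 fold change was −1.14 (SE 0.14, limma adjusted p = 0.243). The angiopoietin receptor Tek (chromosome 4, 94739289 to 94874976) was at 3.83 and 4.89 FPKM in controls and 1.60 and 0.94 FPKM in SMA mice, −1.83 on the same scale (SE 0.25). Its partner receptor Tie1 was at 3.99 and 3.56 FPKM in controls and 1.71 and 1.4 FPKM in SMA mice. The VEGF receptor Kdr changed less, from 5.67 and 6.19 FPKM to 4.23 and 4.27 FPKM. Pecam1, the adhesion molecule used to stain vessels, went from 7.17 and 7.78 FPKM to 4.71 and 4.89 FPKM. In each of these the SMA mice were both lower than both controls.

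Not all endothelial genes took part. Cd34 and Ocln overlapped between genotypes, and Ly6c1 was at 8.40 and 8.19 FPKM in controls and 8.27 and 7.83 FPKM in SMA mice. Ly6a, the Sca-1 antigen, was the called gene in the other direction, with 2.71 and 2.96 FPKM in controls and 3.62 and 4.03 FPKM in SMA mice. Among 15 genes of tip cells and angiogenesis 3 were higher and 1 lower, with a median of 0.03, and 0 were higher without control replicate 2. Aplnr, the apelin receptor (chromosome 2, 85136225 to 85139923), had the firmest single change, at −2.51 length-relative (SE 0.13, limma adjusted p = 0.0422). Its values were 10.41 and 11.87 FPKM in controls and 1.87 and 1.93 FPKM in SMA mice. Its ligand Apln rose, from 4.65 and 4.28 FPKM to 6.68 and 6.57 FPKM. So did Angpt2, a ligand of Tek, from 1.39 and 1.21 FPKM to 2.16 and 2.08 FPKM.

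Of 16 barrier transporters 3 were called lower and 0 higher, and with males only 6 were lower and 1 higher. Slc38a5, which carries glutamine (X chromosome, 8271133 to 8280179), was at 13.51 and 11.49 FPKM in controls and 5.29 and 1.89 FPKM in SMA mice, so the SMA mice also differed from each other. Slco1c1, a thyroid hormone carrier, was at 21.58 and 21.49 FPKM in controls and 13.22 and 10.08 FPKM in SMA mice. Slc16a1, which carries lactate and ketone bodies, was at 22.22 and 23.88 FPKM in controls and 17.65 and 13.84 FPKM in SMA mice.

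Pericytes wrap the capillaries, and 6 of their 15 genes were called lower and 0 higher, with a median of −0.36. Besides Rgs5 these were Vtn, Higd1b, Kcnj8, Foxf2 and Cd248. Vtn was at 26.36 and 26.03 FPKM in controls and 19.21 and 17.11 FPKM in SMA mice, and the channel subunit Kcnj8 was at 2.13 and 2.09 FPKM in controls and 1.02 and 1.47 FPKM in SMA mice. Cspg4, shared with oligodendrocyte precursors, had the opposite order, at 2.21 and 2.17 FPKM in controls and 3.10 and 3.17 FPKM in SMA mice. Without SMA replicate 1, 8 pericyte genes were called lower, but without control replicate 1 it was 1 and without control replicate 2 it was 2. Smooth muscle genes gave 0 calls of 7 (2 lower with males only), and their defining gene Myh11 was under 0.4 FPKM throughout. Of 29 collagen and basement membrane genes 3 were lower, Col1a1, Dcn and Lum, all made by fibroblasts of the meninges and vessel wall. Col1a1 had 26.06 and 19.88 FPKM in controls and 13.15 and 15.21 FPKM in SMA mice.

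**Figure D3:**
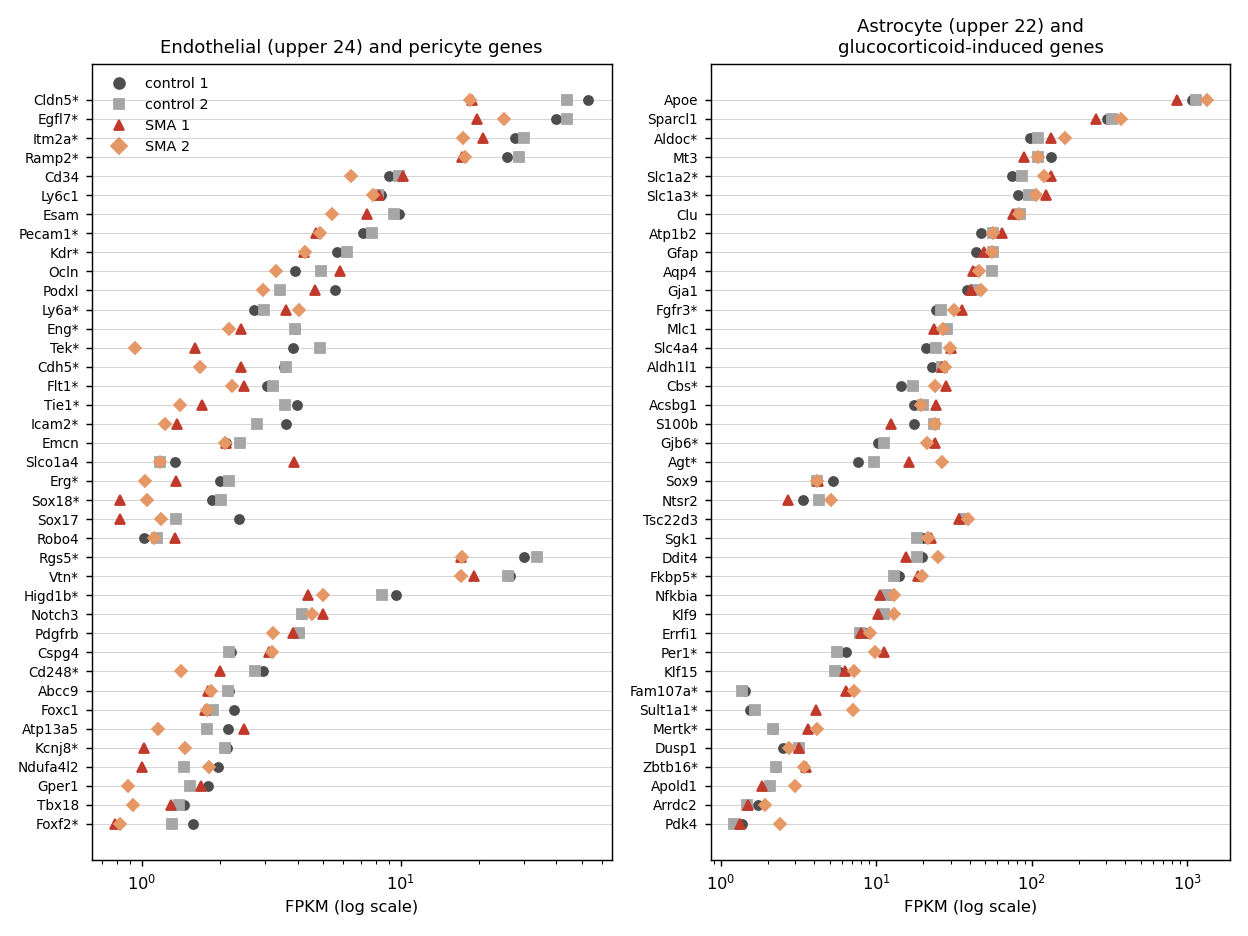
FPKM (horizontal axes, log scale) in the 4 day 5 libraries of endothelial and pericyte genes (left) and of astrocyte and glucocorticoid-induced genes (right), ordered within each list by mean level, with an asterisk on called genes. On the left the SMA symbols of called genes lie to the left of the controls except for Ly6a, and on the right they lie to the right.

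A minority of astrocyte genes were called, all of them higher. Astrocytes clear glutamate and potassium and supply metabolites, and 7 of 22 of their genes were called higher and 0 lower, with a median of 0.18 and a negative change in 4. The glutamate transporter Slc1a2 was at 74.09 and 86.78 FPKM in controls and 133.72 and 120.36 FPKM in SMA mice. The second one, Slc1a3, was at 81.65 and 95.7 FPKM in controls and 123.82 and 106.16 FPKM in SMA mice. Agt, the angiotensin precursor (chromosome 8, 124556534 to 124569706), had 7.62 and 9.6 FPKM in controls and 16.25 and 26.52 FPKM in SMA mice, a length-relative log2 fold change of 1.41 (SE 0.22, limma adjusted p = 0.374). The gap junction gene Gjb6 had 10.3 and 11.24 FPKM in controls and 23.98 and 21.02 FPKM in SMA mice. The general astrocyte markers Gfap, Aldh1l1 and Aqp4 were not called. Aqp4, the water channel, was at 44.22 and 55.19 FPKM in controls and 41.8 and 45.88 FPKM in SMA mice. Gfap was at 43.59 and 56.26 FPKM in controls and 49.55 and 55.38 FPKM in SMA mice, and Aldh1l1 at 22.65 and 26.47 FPKM against 26.6 and 27.77 FPKM. With males only the count was again 7, without control replicate 1 it was 3, and without control replicate 2 it was 4.

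Of 17 genes that glucocorticoid hormone induces 6 were called higher and 0 lower, with a median of 0.21. The hormone acts through a nuclear receptor that switches these genes on. Fkbp5, a chaperone that dampens the receptor, was at 14.01 and 13.08 FPKM in controls and 18.61 and 19.79 FPKM in SMA mice. Sult1a1, a sulfotransferase, was at 1.54 and 1.67 FPKM in controls and 4.12 and 7.04 FPKM in SMA mice. Fam107a, an actin-binding protein, was at 1.44 and 1.36 FPKM in controls and 6.37 and 7.18 FPKM in SMA mice. The length-relative log2 fold changes were 1.92 for Sult1a1 (SE 0.20) and 2.19 for Fam107a (SE 0.15). Tsc22d3, the most abundant of the list and a classical target, was not called, with 35.97 and 36.55 FPKM in controls and 33.99 and 39.1 FPKM in SMA mice. With males only the count was 10 of 17.

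Smaller groups had a few called members each, and their counts depend on single libraries. Of 24 p53 targets 4 were higher and 1, Pltp, was lower, and 1 was higher without control replicate 2. Cdkn1a, the cell cycle inhibitor p21, was at 10.84 and 8.89 FPKM in controls and 14.39 and 13.88 FPKM in SMA mice, and Pmaip1, the apoptosis gene Noxa, was at 0.90 and 0.97 FPKM in controls and 1.69 and 2.09 FPKM in SMA mice. The alarmins S100a8 and S100a9 rose from 0.93 and 0.94 FPKM to 3.28 and 3.71 FPKM and from 1.02 and 0.93 FPKM to 1.54 and 2.99 FPKM. The other neutrophil granule genes of that list were mostly under 1 FPKM, among them Mpo at a mean of 0.06 and Elane at 0.0175 FPKM. Interferon response genes were negative in 11 of 11, with 2 called, and 0 without control replicate 2. B2m, the light chain of MHC class I, was at 29.48 and 29.4 FPKM in controls and 17.03 and 20.48 FPKM in SMA mice.

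Microglial genes split. P2ry12, Trem2 and Tyrobp, 3 of 22, were called lower, against 0 without control replicate 2, and P2ry12 was at 9.85 and 11.2 FPKM in controls and 6.65 and 7.58 FPKM in SMA mice. Cx3cr1 and Csf1r did not follow, with 6.88 and 6.70 FPKM against 6.90 and 6.60 FPKM and 7.91 and 8.42 FPKM against 8.92 and 8.92 FPKM. In the cholesterol pathway 4 of 25 were lower, among them Tm7sf2, Ebp and Mvk, with 7 lower in males only and 1 without control replicate 2, while Hmgcs1 was at 233.03 and 232.62 FPKM in controls and 254.53 and 214.68 FPKM in SMA mice. Of 25 progenitor and immature neuron genes 4 were lower (2 with males only, 0 without control replicate 2), including Fabp7 of radial glia, at 1416.35 and 1405.53 FPKM in controls and 755.61 and 919.66 FPKM in SMA mice. The mature neuron gene Snap25 was not called, at 216.91 and 221.73 FPKM in controls and 182.15 and 199.85 FPKM in SMA mice. Of 25 genes of vesicle release 1, Rims1, was called higher and 0 lower, and the length-relative change was positive in 16 and negative in 9.

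**Figure D4:**
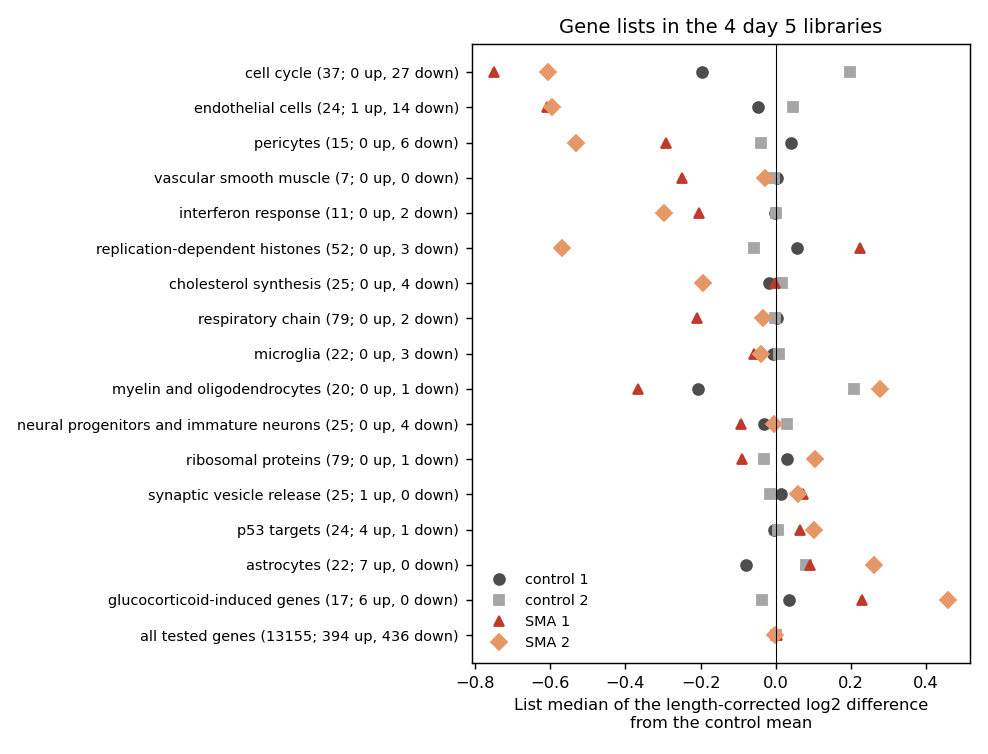
Median over each gene list (rows, with the number tested and called in each direction) of the length-corrected log2 difference from the control mean (horizontal axis), with 1 symbol per day 5 library. Cell cycle and endothelial genes have both SMA libraries near −0.6 or lower, and histones and myelin genes have the SMA libraries on opposite sides of 0.

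Several large families of short transcripts had medians that lay further below 0 before the length correction than after it. The 79 ribosomal protein genes had a median log2 fold change of −0.30 before and −0.01 after it, with 1 lower before it and 1 called lower. The 79 nuclear-encoded respiratory chain genes went from −0.40 to −0.10, with 62 of the 79 still negative, and from 10 lower genes to 2. These low counts rest on SMA replicate 2, without which 23 ribosomal protein and 36 respiratory chain genes were called lower, where 9.11% of all genes were. For the 52 replication-dependent histones the median went from −0.52 to −0.14 and the count from 26 lower to 3, Hist1h1d, Hist1h1e and Hist1h2af. The SMA mice disagreed on this last family, with length-relative medians of 0.23 and −0.57. In the polysomal RNA of day 5, 40 of the 52 histones were called lower, where 5.31% of all genes were. With males only 29 of 52 histones were called lower. Hist1h1e, a linker histone, was at 142.98 and 151.72 FPKM in controls and 84.1 and 94.86 FPKM in SMA mice.

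The SMA mice also differed in the metallothioneins, which bind zinc. The length-relative change was positive in all 3 genes, with medians of 0.32 and 1.35 in SMA replicates 1 and 2 relative to the control mean. In day 5 polysomal RNA 2 of the 3 were called higher, where 535 of 13155 genes were. At day 7, where 609 genes were higher, it was again 2. Mt1 was at 54.7 and 47.12 FPKM in controls, at 42.58 FPKM in SMA replicate 1 and at 119.79 FPKM in SMA replicate 2, and 0 of 3 genes were called, or 2 higher with males only. Myelin genes differed between replicates of both genotypes. Mbp was at 76.83 and 133.38 FPKM in controls and 54.21 and 136.26 FPKM in SMA mice, and 1 of 20 myelin genes, Cd9, was called, against 4 lower without SMA replicate 2.

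Several of the called genes with the largest length-relative decreases are vascular. Of the 15 with a mean of at least 2 FPKM, Aplnr, Tek, Slc38a5, Tie1 and Cldn5 have been described, and Ecscr is a further endothelial gene, at 4.61 and 5.29 FPKM in controls and 1.20 and 2.17 FPKM in SMA mice. Ccl21a, a lymphoid chemokine, was at 5.68 and 6.85 FPKM in controls and 0.53 and 0.39 FPKM in SMA mice. Of its transcript's 31-base words 80.6% also occur in other genes, so its value is uncertain between copies, and so is that of Prnd (98.3%). Crygn, a crystallin, was at 12.98 and 7.08 FPKM in controls and 3.48 and 2.96 FPKM in SMA mice. Other eye genes also varied, with a summed retina and eye list of 3.13 and 20.9 FPKM in controls and 3.24 and 12.2 FPKM in SMA mice. Their part in the Crygn difference was not tested. Among the 15 largest increases 9 are predicted gene models. One is Gm10800, at 347.1 and 484.23 FPKM in controls and 947.88 and 738.73 FPKM in SMA mice, with 46.8% of its words shared with 11 other genes. All but Gm10337 (0%) share 37.1% to 93.1% of their words with other genes, and their values are uncertain for that reason. Gm10337 has the shortest transcript tested, at 165 bases. Its log2 fold change was 0.56 before the length correction and 1.29 after it, so its rank rests on the end of the lowess curve. Gm10479, at 241 bases, likewise went from 1.43 to 2.08.

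The day 7 libraries came from other mice, 3 of each genotype, and give the direction in animals that played no part in the calls. Sex was mixed and unequal in these groups too. Xist was at 9.22, 8.41 and 0.02 FPKM in the controls and at 0.19, 0.02 and 6.69 FPKM in the SMA mice, so that 2 controls and 1 SMA mouse were female by this transcript. Of the 436 genes lower at day 5, 359 (82.3%) had the same sign at day 7 and 119 (27.3%) were called lower, where 4.89% of all genes were. Of the 394 higher genes, 263 (66.8%) had the same sign and 87 (22.1%) were called higher, where 4.63% of all genes were. Of the genes called at day 7, the day 5 calls covered 18.5% of the lower and 14.3% of the higher ones. Of the 14 endothelial genes lower at day 5, 12 were called lower again, and of the 6 pericyte genes 5 were. In total 14 of 24 endothelial genes were lower and 2 higher at day 7 (Ly6a and Ly6c1), and 7 of 15 pericyte genes were lower, with medians of −0.50 and −0.34. Cldn5 was at 30.2 ± 4.25 FPKM in controls and 14.6 ± 0.756 FPKM in SMA mice (SD, n = 3 each). Of the cell cycle genes 7 of 37 were lower at day 7, 6 of them among the 27 of day 5, with a median of −0.47. The SMA mice differed in these genes, with medians of −0.35, −0.08 and −0.89 relative to the control mean in replicates 1 to 3. Astrocyte genes gave 8 of 22 higher, 4 of them among the 7 of day 5, with a median of 0.13. Glucocorticoid-induced genes gave 6 of 17 higher, 5 of them called at day 5, and their median was 0.07 against 0.21 at day 5.

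**Figure D5:**
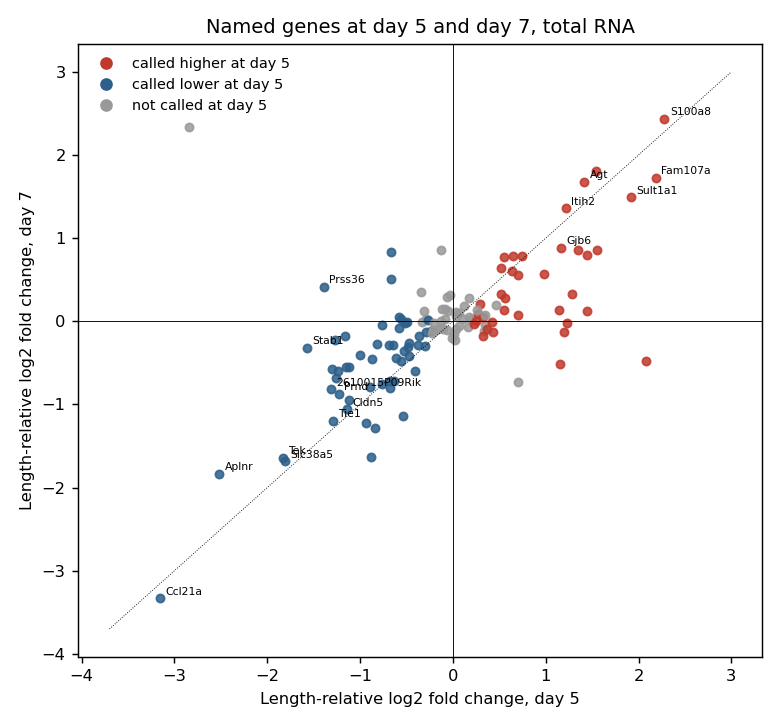
Length-relative log2 fold change of SMA over control at day 5 (horizontal axis) and day 7 (vertical axis) for the named genes in total RNA, coloured by their day 5 call, with the dotted line marking equal change. Of the 15 genes with the largest decreases 14 are also negative at day 7, and of the 15 largest increases 11 are positive.

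Whether an effect differed between the stages was tested as the interaction of genotype and stage over the 10 libraries. Of 13140 genes tested 271 were more positive at day 7 (2.06%) and 309 more negative (2.35%), and 0 passed Benjamini-Hochberg adjustment in limma, where the smallest adjusted p was 0.573. At an unadjusted p under 0.05 there were 857 genes after length correction. A stage difference is therefore not established for any single gene. Egfl7, an endothelial secreted factor, is an example of the unadjusted calls, with 39.97 and 43.85 FPKM in controls and 19.64 and 25.09 FPKM in SMA mice at day 5. At day 7 its group means were 25.8 and 25.0 FPKM. Nr4a2, an immediate early transcription factor, was at 8.22 and 9.23 FPKM in controls and 22.48 and 17.10 FPKM in SMA mice at day 5, and at 14.7 and 15.9 FPKM on average at day 7.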

How the data were processed

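Total cytoplasmic RNA of day 5 and day 7 brains had been sequenced by the authors with a stranded total RNA kit. Per the labels and the study's methods, the authors aligned the reads to GRCm38.p4 with TopHat2 2.0.14, and Cufflinks 2.2.1 gave the FPKM values that they deposited. These are normalized to mapped fragments and transcript length, so depth and counting error cannot be recovered from the values alone.

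Values were taken as log2(FPKM + 0.1), which understates the change of low genes, and fitted with limma 3.58.1 (lmFit, eBayes with trend) in R 4.3.3. The length correction was a lowess (span 0.3, 3 iterations) of each library's deviation from the gene mean on log2 length of the longest Gencode M21 transcript. A gene was called at an unadjusted p under 0.05 in both fits with the same sign. Replicates are taken to be separate mice, which the sample titles do not state.

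Genes named are, per direction, the 15 called genes of largest length-relative change with non-overlapping values and a mean of at least 2 FPKM, Smn1, and per list up to 4 called members of smallest p and the most abundant member. Other list members and markers were named after their values were seen. The 46 gene lists and the members were chosen with earlier results of these data known. On simulated data for this comparison (13155 genes) the rule recovered 98% of 100 genes changed by 1 log2 unit and 79% of 100 changed by 0.5, and called 2.34% of unchanged genes. The uncorrected fit alone called 15.1% of unchanged genes there. Noise was simulated independently for each gene and library, with a spread smoothed over expression and no difference of sex. Genes in real mice vary together, so these shares are not the power or error rate for the real libraries. Alternatives covered pseudocounts, filters, scaling, the variance model, the length measure, thresholds, a replicate block and leaving out each library. Promoter windows are from RefSeq. A few genes are not reported here.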

Additional observations from a re-analysis of the deposited data

How the results depend on the processing

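All 830 called genes kept their sign under every refit in which they were tested, and none of the 90 called genes named by rule reversed. Their control and SMA values did not overlap, so leaving out 1 library could not turn the sign of the uncorrected change. Kept signs therefore say little about stability. Of the 41 such genes not called, 21 changed sign without 1 library. The number called moved from 830 to 534 with a mean of at least 5 FPKM (263 lower), to 1485 in the uncorrected fit alone (735 higher, 750 lower), to 169 at p under 0.01 (63 and 106) and to 1 after Benjamini-Hochberg adjustment in limma (0 higher, 1 lower). Leaving out 1 library gave 293 to 2264 calls, 128 to 1065 higher and 145 to 1199 lower. It gave 389 calls without control replicate 1, 293 without control replicate 2 and 2264 without SMA replicate 2, and of the 830 genes 273, 222 and 641 were called again. The lone sample left is taken to vary like the other genotype, and the cause of these shifts was not tested. Without 1 library, 10 to 30 cell cycle, 9 to 16 endothelial and 1 to 8 pericyte genes were lower, and 3 to 8 astrocyte and 4 to 10 glucocorticoid-induced genes were higher. A model over the 10 libraries gave 13 cell cycle genes. The rank correlation with length was 0.299 for the median transcript length and 0.318 to 0.582 without 1 library. Stage differences numbered 580, 1391 uncorrected, 0 after adjustment and 328 to 1501 without 1 library. In 43 of the 46 lists a count moved by over 1.5 times, or from or to 0, without at least 1 library (23 and 25 without control replicates 1 and 2, 30 and 34 without SMA replicates 1 and 2). A correction for length and GC, chosen after seeing the data, gave 839 calls. Same-numbered libraries of the genotypes come from different mice, and their deviations correlated at −0.0187. With the number as a replicate block 822 genes were called (362 higher, 460 lower), 652 of them among the 830. FPKM hold no counts, so what depth limits is unknown, and 2 mice of unlike sex in the SMA group limit every count.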

Other observations

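Myelin genes differed more between replicates than between genotypes. The median length-corrected difference from the control mean over 20 myelin genes was −0.21 in control replicate 1 and 0.21 in control replicate 2, and −0.37 and 0.28 in SMA replicates 1 and 2. Mag, a myelin glycoprotein, was at 7.01 and 10.76 FPKM in controls and 5.96 and 11.09 FPKM in SMA mice. A comparison of genotypes in these genes thus has little precision at day 5.

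Receptors and channels of neurons gave few calls, beside 3.00% of all genes called higher. Of 24 glutamate and GABA receptor genes 1 was called, Grin1, the obligate NMDA receptor subunit, at 23.28 and 22.11 FPKM in controls and 35.18 and 29.11 FPKM in SMA mice. Of 23 ion channel genes 2 were called, Scn1a and Cacna1b, while 7 were higher before length correction. Without SMA replicate 2, where 8.10% of all genes were called higher, these counts were 9 and 5. Without control replicate 1 or 2 both were 0, where 0.973% and 1.13% of all genes were. Among 14 genes of the insulin-like growth factor axis Igfbp3 was higher, at 10.1 and 9.92 FPKM in controls and 12.13 and 15.4 FPKM in SMA mice, and Igfbp4 lower, at 33.39 and 31.87 FPKM against 22.45 and 23.86 FPKM. Choroid plexus genes gave 1 higher call of 14. Ttr, the most abundant of them, was at 392.94 FPKM in SMA replicate 1 and between 707.73 and 777.75 FPKM in the other libraries.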
